A study of Sus scrofa with 24 samples.

Results

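Birth separates a fetal state, measured here at 94 days post conception (94 dpc), from 3 postnatal stages, measured at 1, 28 and 188 days post natum (dpn). The comparison used 24 of the 24 samples of the series: the 6 samples at 94 dpc were set, in a single contrast, against the average of the 3 postnatal stage means, which rest on 18 samples. A change was counted as a persistent step when it passed the test in this contrast and in each postnatal stage against 94 dpc, in the same direction. No stage between 94 dpc and 1 dpn was sampled. A change late in fetal life can therefore not be told apart from a change at birth, and a step here lies anywhere between these stages.

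The animals were offspring of German Landrace gilts, and in every group the mothers had received the gestational high protein (HP) diet, so no group on another diet enters the comparison. Each stage holds 6 animals from 3 gilts, and each RNA sample was hybridised to 1 Affymetrix porcine array. The labels give neither mother nor sex nor array batch, so animals that share a mother were treated as independent and the p-values are too small by an unknown amount. The labels call the tissue liver and the series title calls it muscle.

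The arrays were checked against both tissues. The summed signal of 12 skeletal muscle fibre markers was 213400 to 318102 at 94 dpc and 425795 to 786477 after birth. The summed signal of 16 hepatocyte markers was 8043 to 63657 at 94 dpc and 2653 to 279095 after birth, and at 188 dpn its median was 25697. The level of the muscle markers goes against the label liver, and the results are therefore described with lists of muscle biology. Of the 16 hepatocyte markers 1 was higher and 4 were lower after birth, beside 19.7% and 27.3% of all genes with a symbol.

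Other cell types are present in bulk tissue, and fewer cells of a type cannot be told apart from less RNA per cell. The marker counts are to be read beside all genes with a symbol, of which 19.7% were higher and 27.3% lower. Of 7 fibroblast markers 6 were lower after birth, with summed signals of 39242 to 48368 at 94 dpc and 12948 to 59007 after birth. Of 10 endothelial markers 7 were lower, with sums of 8252 to 14642 against 3501 to 11076. All 12 muscle fibre markers were higher. No macrophage marker of 8 was higher and 2 were lower, which is near the share of all genes that were lower. Macrophage sums were 3289 to 26069 against 1699 to 9149, and the high value belongs to 94 dpc animal 5. Of 8 lymphocyte markers 1 had a stage mean above background. The part of these cell types in the results was not tested.

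Technical signs also moved with the contrast. The 5′ over 3′ signal ratio of the actin control was 0.208 to 0.253 at 94 dpc and 0.0325 to 0.212 after birth, lowest in 1 dpn animals 1, 2 and 3. The BioB spike control was 949 to 1774 at 1 dpn and 445 to 837 at the other stages. The median signal of an array was 154 to 188 at 94 dpc and 109 to 147 after birth. In 94 dpc animal 5 the muscle marker median was 19387, the lowest of all 24 arrays. Plasma protein transcripts were high in 188 dpn animals 1, 2 and 3, with hepatocyte marker sums of 279095, 224483 and 47137. These sums were also high in 94 dpc animals 1 (44903) and 2 (63657) and in 1 dpn animal 3 (42073). The part of these signs in the results was not tested.

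Around birth the fetus loses the placental supply of glucose and begins to breathe air, take fat from milk and bear its own weight. Skeletal muscle answers over time with more mitochondria, adult isoforms of the contractile proteins and stores of glycogen and phosphocreatine, which refill ATP during contraction. Fetal muscle is still forming fibres from dividing myoblasts in a growing connective tissue, and several imprinted genes, which are read from the copy of a single parent, are known for high activity in fetal growth and low activity later.

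Of 23935 probe sets tested, 2925 were higher after birth (12.2%) and 6173 were lower (25.8%), 9098 (38%) together, in the average contrast (limma on log2 signal, Benjamini-Hochberg adjusted p at most 0.05). Persistent steps numbered 3104 (13%), of which 999 rose (4.17%) and 2105 fell (8.79%). An average difference of at least 2-fold was reached by 672 of the rises and 1658 of the falls. In 494 of the rises every one of the 18 postnatal arrays lay above every one of the 6 fetal arrays (over all tested probe sets the share is 2.12%). In 995 of the falls every postnatal array lay below every fetal array (4.77% over all tested).

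The balance of rises and falls depended on the scaling of the arrays. With the deposited scaling 32.15% of called probe sets were higher after birth. This share was 49.37% after quantile normalization and 61.17% after the arrays were centred on their medians. The median difference over all tested probe sets was −0.20 log2 units as deposited, 0.02 with quantile normalization and 0.17 with centring, and gene changes are to be read against this shift. Under all 3 scalings 812 rises and 905 falls were persistent, which is 81.28% and 42.99% of those reported. Without 94 dpc animal 5 the persistent steps numbered 876 rises and 1795 falls. Without 1 dpn animals 1, 2 and 3 they numbered 1033 and 2148.

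A persistent step is not a constant one. An F test among the 3 postnatal stages called 1564 of the 3104 persistent steps (50.4%), beside 37.2% of all tested probe sets. This F test uses no fetal mean, but its estimate of spread comes from all arrays, including the fetal arrays. The tests for persistence share this estimate, so the higher share among persistent steps is not an independent result. A step was described as level when its smallest difference from 94 dpc was at least 0.75 of its largest, as growing when the 188 dpn difference was over 2 times that at 1 dpn, and as partly reversed when it was under 0.5 times that at 1 dpn. Of the rises 218 were level, 173 growing and 85 partly reversed. Of the falls 350 were level, 522 growing and 32 partly reversed. Among persistent steps with every stage mean above background, 178 of 899 rises were level, 164 growing and 84 partly reversed, and 283, 440 and 27 of 1702 falls. From 28 to 188 dpn 718 of the persistent falls moved further from the fetal level and 7 moved back. Over the same interval 145 of the rises moved further and 73 moved back. Of the 6765 genes with a symbol, each read by 1 probe set, 14.3% were lower and 6.16% higher at 188 than at 28 dpn. The median difference from 94 dpc over all tested probe sets was −0.14 at 28 dpn and −0.29 at 188 dpn, with the scaling as deposited. The direction of these moves was not counted under the other scalings.

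**Figure D1:**
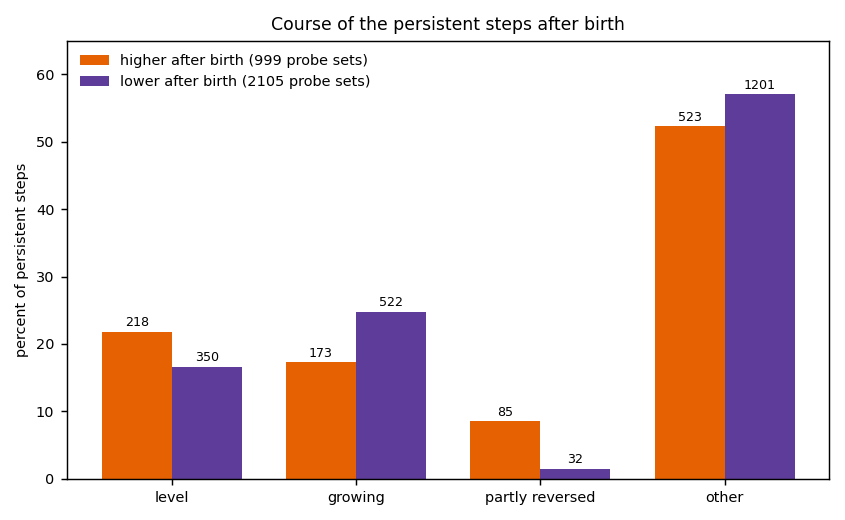
The bars give the percent of persistent steps (vertical axis) with a level, growing, partly reversed or other course after birth, for 999 rises (orange) and 2105 falls (purple), with the number of probe sets above each bar. With the scaling as deposited, growing courses make up 24.8% of the falls and 17.3% of the rises, and partly reversed courses 1.52% and 8.51%.

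Probe sets with a symbol gave 6765 genes, each read by its brightest probe set. Of these genes 1330 were higher (19.7%) and 1850 lower (27.3%) after birth, and the persistent steps numbered 562 rises (8.31%) and 657 falls (9.71%). The median difference over these genes was −0.12 log2 units. The gene lists below are to be read against these shares.

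Genes of the energy supply were among the largest rises. CKMT2 encodes the mitochondrial creatine kinase of muscle, which makes phosphocreatine from ATP. At 94 dpc its signal was 551 to 1385 with a median of 1234. Signals of CKMT2 after birth were 21817 to 43775 with a median of 32195 at 1 dpn, 21450 to 31693 with a median of 25835 at 28 dpn, and 18642 to 29163 with a median of 23238 at 188 dpn. Every postnatal array lay far above every fetal array. The average rise was 24.8-fold (log2 difference 4.63, SE 0.18, adjusted p = 1.35e-13). The postnatal stages did not differ by the F test (adjusted p = 0.32), and the step had its whole size at 1 dpn. In the creatine list 4 of 6 measured genes were higher and none lower, 3 of them persistent and 2 under all 3 scalings, with a median of 0.92. The creatine transporter SLC6A8 rose by 0.92 log2 units (SE 0.12, adjusted p = 3.97e-06) and rose again from 28 to 188 dpn by 0.83 (adjusted p = 0.000593). The cytosolic muscle creatine kinase CKM was 0.83 higher (SE 0.11) as deposited, but 0.18 with quantile normalization, where it did not pass (adjusted p = 0.11).

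PDK4 encodes a kinase that switches off pyruvate dehydrogenase and so spares glucose when fat is burned. PDK4 signals were 252 to 509 with a median of 348 at 94 dpc. After birth they were 2025 to 14776 (median 6147) at 1 dpn, 2904 to 10739 (median 6267) at 28 dpn and 5916 to 36565 (median 16653) at 188 dpn. The lowest postnatal array stood above the highest fetal array. The rise was 21.6-fold on average (log2 difference 4.43, SE 0.36, adjusted p = 3.42e-09).

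**Figure D2:**
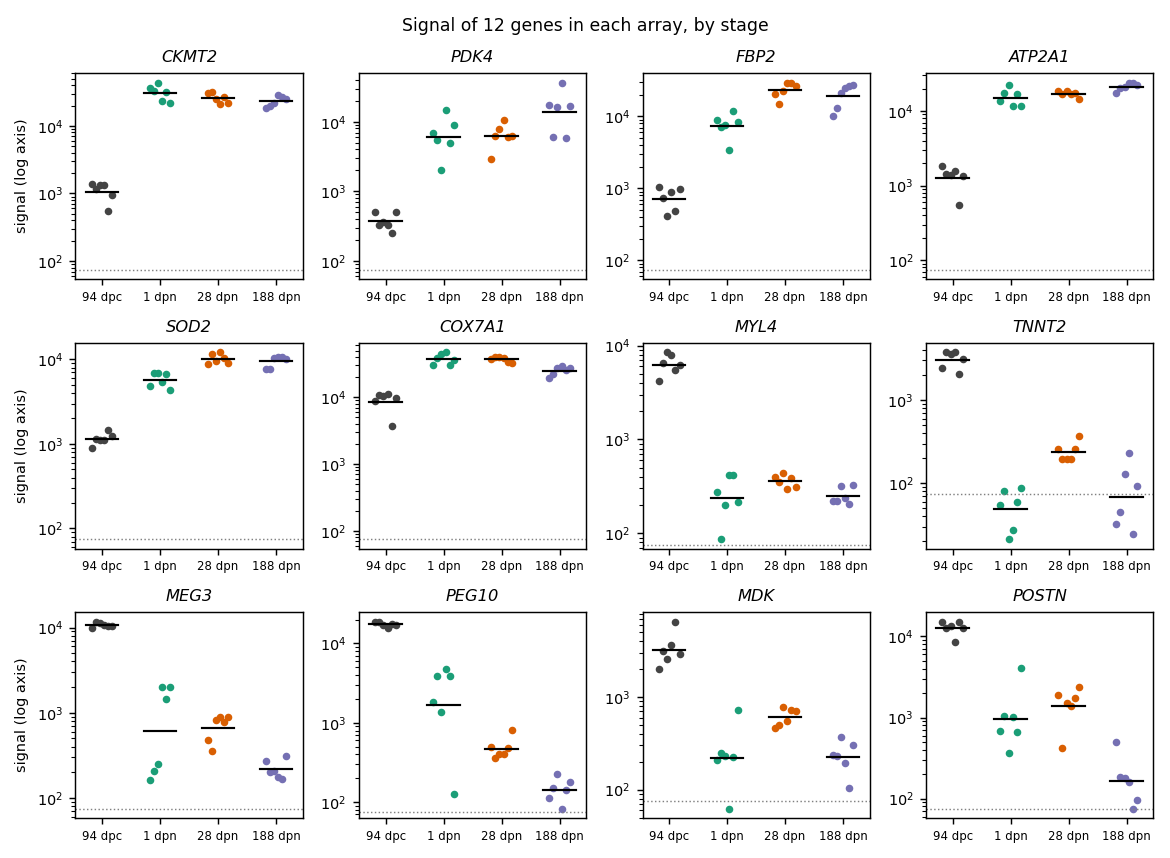
Each panel plots the signal of a gene (log axis) in the 24 arrays by stage, with a line at the geometric mean of each stage and a dotted line at the background level of 74.7. CKMT2, PDK4, FBP2, ATP2A1, SOD2 and COX7A1 lie higher in every postnatal array than in every fetal array, and MYL4, TNNT2, MEG3, PEG10, MDK and POSTN lie lower.

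Of 20 measured glycolysis genes 12 were higher and 5 lower, with 10 persistent rises, 3 persistent falls and a median of 0.94. Under all 3 scalings 8 of these rises and 1 fall persisted. Of 11 glycogen genes 8 were higher and 1 lower, with 6 persistent rises, all 6 under the 3 scalings, and a median of 1.55. Higher at 28 than at 1 dpn were 8 of the 20 and 6 of the 11, beside 13.3% of all genes.

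FBP2, the muscle fructose-1,6-bisphosphatase that serves glycogen synthesis from lactate, had signals of 414 to 1054 (median 805) at 94 dpc. Its signals were 3396 to 11735 (median 7956) at 1 dpn, 15119 to 29509 (median 24499) at 28 dpn and 10229 to 27270 (median 23040) at 188 dpn. The postnatal arrays did not overlap the fetal arrays, and 1 dpn lay under 28 dpn in each array. The rise was 20.8-fold (log2 difference 4.38, SE 0.25, adjusted p = 2.65e-11), with a further 1.66 log2 units from 1 to 28 dpn (adjusted p = 0.00056).

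PFKM, the muscle phosphofructokinase that commits sugar to glycolysis, was 2693 to 5107 (median 3938) at 94 dpc. It was 7499 to 34693 (median 16586) at 1 dpn, 38224 to 48124 (median 45038) at 28 dpn and 41875 to 57457 (median 50376) at 188 dpn. Fetal and postnatal arrays were apart, and the 1 dpn arrays lay between the fetal and the older ones. The rise was 8.49-fold (log2 difference 3.09, SE 0.20, adjusted p = 1.02e-10).

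Further members of both lists rose persistently. GPI, the isomerase of the second step of glycolysis, rose 5.81-fold, with 1.26 log2 units at 1 dpn and 3.19 at 28 dpn. GPD1, a glycerol phosphate dehydrogenase that passes on NADH from the cytosol, rose 7.13-fold, with 1.03 at 1 dpn and 3.98 at 188 dpn. LDHA, the lactate dehydrogenase of fast muscle, rose 4.33-fold. PGM1, which links glycogen to glycolysis, rose 5.24-fold, and PHKB, a subunit of the kinase that activates glycogen phosphorylase, rose 4.82-fold. PHKB was persistent by a small margin at 1 dpn, with 0.59, and was not persistent without 1 dpn animals 1, 2 and 3. PYGM, the muscle glycogen phosphorylase itself, had a level course, with 2.52, 2.98 and 2.90 log2 units at the 3 stages and a 6.96-fold rise.

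The glucose transporter SLC2A1, which serves basal glucose uptake, went the other way. SLC2A1 signals were 306 to 552 (median 415) at 94 dpc, 111 to 198.5 at 1 dpn, 125 to 182 at 28 dpn and 31.1 to 175 at 188 dpn. No postnatal array reached the fetal range, and the fall was 3.19-fold (log2 difference −1.68, SE 0.23, adjusted p = 5.23e-06).

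Mitochondrial genes had the largest shares of persistent rises among the 30 pathway lists, with the scaling as deposited. Of 23 measured citric acid cycle genes 21 were higher and 1 lower, with 20 persistent rises, no persistent fall and a median of 1.34. Under all 3 scalings 15 of these 20 persisted. Of 49 genes of oxidative phosphorylation 43 were higher and 1 lower, with 35 persistent rises and a median of 0.99, and 12 of the 35 persisted under all 3 scalings.

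From 1 to 188 dpn 30 of the 49 genes of oxidative phosphorylation fell and 1 rose, beside 27.5% of all genes that fell and 17.4% that rose in that comparison. Of the 35 persistent rises 16 were partly reversed, and 27 differed among the postnatal stages by the F test, beside 48.2% of all genes. In the citric acid cycle list 7 of 23 fell and 2 rose over the same interval. In the glycolysis list 9 of 20 rose and 5 fell, and in the glycogen list 6 of 11 rose and 2 fell. The tests between postnatal stages use no fetal mean, while persistence and reversal are defined against 94 dpc. All these tests share an estimate of spread from all arrays, including the fetal arrays. The F test count among persistent rises is therefore not independent of the persistence calls.

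IDH2, the mitochondrial isocitrate dehydrogenase, shows the level kind of step. IDH2 signals were 6391 to 8656 (median 7666) at 94 dpc, 27527 to 37290 (median 32912) at 1 dpn, 23942 to 33061 (median 28120) at 28 dpn and 17984 to 29598 (median 24088) at 188 dpn. Fetal and postnatal arrays did not overlap, and the rise was 3.71-fold (log2 difference 1.89, SE 0.12, adjusted p = 5.82e-11). MDH1, the cytosolic malate dehydrogenase of the malate shuttle, shows the reversing kind. It was 4413 to 6114 (median 5321) at 94 dpc, 21153 to 35767 (median 28176) at 1 dpn, 19529 to 25618 (median 22053) at 28 dpn and 8700 to 12144 (median 10318) at 188 dpn. Its arrays at 188 dpn lay above every fetal array and below every array of 1 and 28 dpn. The average rise of MDH1 was 3.49-fold (log2 difference 1.80, SE 0.12, adjusted p = 1.4e-10), and the fall from 28 to 188 dpn was −1.10 (adjusted p = 1.96e-05).

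SUCLA2, a subunit of succinyl-CoA synthetase, rose 4.40-fold with a growing course, and SDHC, an anchor of succinate dehydrogenase, rose 3.54-fold with a level one. Among complex I genes NDUFC1 rose 4.23-fold and NDUFA9 3.19-fold. UQCRB of complex III rose 3.12-fold. COX7A1, the muscle isoform of a cytochrome oxidase subunit, was 3720 to 11153 (median 10243) at 94 dpc, 30621 to 47611 at 1 dpn, 32660 to 39990 at 28 dpn and 19400 to 29193 at 188 dpn. No postnatal array overlapped the fetal ones, among which 94 dpc animal 5 was the low value, and the rise was 3.79-fold (log2 difference 1.92, SE 0.17, adjusted p = 1.55e-08). COX6A1, the form of another subunit that most tissues use, was the gene of the list that was lower (−0.63, SE 0.19, adjusted p = 0.011), and it did not pass with median centring (adjusted p = 0.34).

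Of 40 measured genes of fatty acid use 25 were higher and 1 lower, with 17 persistent rises, 11 of them under all 3 scalings, and a median of 0.89. From 1 to 188 dpn 20 of the 40 fell and 6 rose, beside 27.5% and 17.4% of all genes. FABP3, the fatty acid carrier of muscle and heart, was highest at 1 dpn and lower at each later stage. FABP3 signals were 4244 to 6363 (median 5968) at 94 dpc, 44513 to 63362 (median 49505) at 1 dpn, 22063 to 31340 (median 24083) at 28 dpn and 5572 to 13995 (median 8971) at 188 dpn. The arrays of 1 and 28 dpn stood apart from the fetal ones, while those of 188 dpn overlapped them. Its difference from 94 dpc was 3.15 at 1 dpn and 0.63 at 188 dpn, and it did not persist with quantile normalization or without 188 dpn animals 4 or 6.

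ANGPTL4, a secreted inhibitor of lipoprotein lipase, took the same course from 3.72 log2 units at 1 dpn to 1.32 at 188 dpn. Its signals were 94.8 to 190.0 at 94 dpc, 1035 to 2614 at 1 dpn, 690.3 to 1411 at 28 dpn and 246 to 587 at 188 dpn, without overlap between fetal and postnatal arrays. LPIN1, a phosphatidate phosphatase and coactivator of fat oxidation genes, rose 5.50-fold and was highest at 188 dpn, 0.90 above 28 dpn (adjusted p = 0.00335). CRAT, which moves acetyl groups onto carnitine, rose 8.90-fold with a level course (log2 difference 3.15, SE 0.17, adjusted p = 1.64e-11).

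The uncoupling proteins went opposite ways. UCP3, the form of skeletal muscle, was 15.3 to 79.0 at 94 dpc, with its mean under background, and 253 to 551 at 1 dpn, 383 to 1032 at 28 dpn and 626 to 1767 at 188 dpn. Every postnatal array lay above every fetal one, and the rise was at least 8.54-fold (adjusted p = 6e-10). For such a bound, each array of a stage whose mean was under the background of 74.7 counts at the higher of its signal and that level. UCP2, a form known from many tissues, was lower in the average contrast, by at least 2.10-fold (adjusted p = 9.84e-05), and was not persistent, since its difference at 1 dpn was −0.60. In the breakdown of branched chain amino acids 4 of 15 genes were higher and 1 lower, with 3 persistent rises and a median of 0.38. Its lower member was BCAT1, the cytosolic transaminase of the pathway (at least 2.69-fold, adjusted p = 0.00046), which was not persistent.

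**Figure D3:**
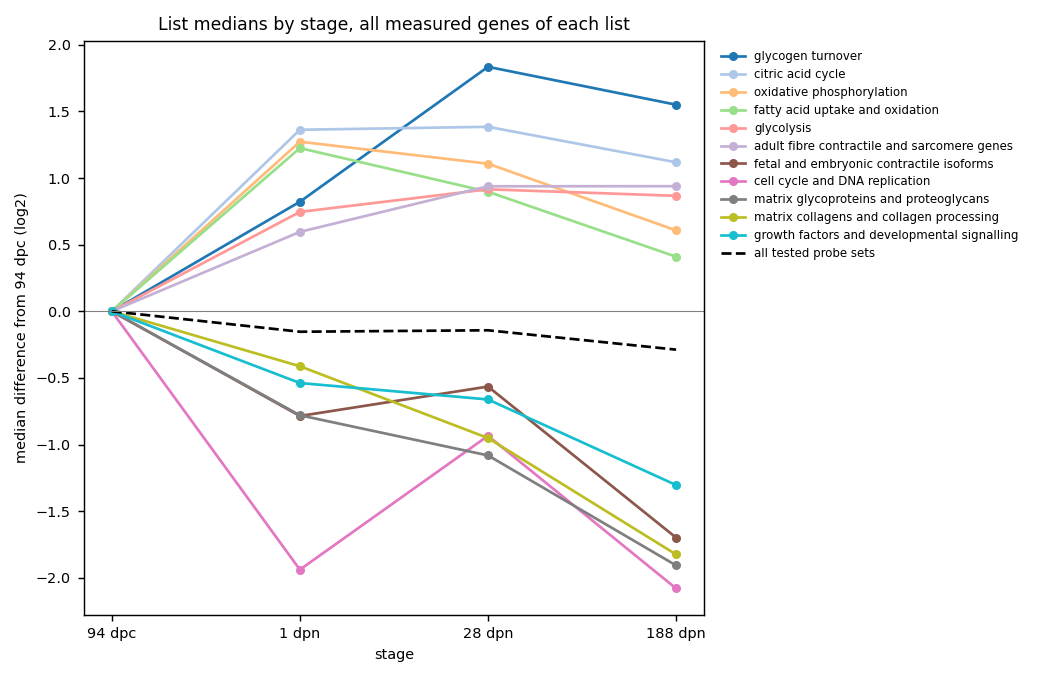
Lines follow the median difference from 94 dpc (log2 units, vertical axis) of all measured genes of 11 lists over the 4 stages, with the median of all tested probe sets dashed; each point is set against the same 6 fetal samples, with the scaling as deposited. Oxidative phosphorylation and fatty acid genes are highest at 1 dpn (1.27 and 1.22) and lowest of the postnatal stages at 188 dpn (0.61 and 0.41), while collagen genes go from −0.41 to −1.82.

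Most antioxidant enzymes that changed were higher after birth. Of 31 genes 18 were higher and 5 lower, with 14 persistent rises, 2 persistent falls and a median of 0.65. Under all 3 scalings 8 rises and 1 fall persisted. SOD2, the superoxide dismutase of mitochondria, was 895 to 1465 (median 1126) at 94 dpc, 4286 to 6892 (median 6089) at 1 dpn, 8842 to 12168 (median 9963) at 28 dpn and 7742 to 10732 (median 10173) at 188 dpn. Fetal and postnatal arrays were far apart, and the rise was 7.13-fold (log2 difference 2.83, SE 0.13, adjusted p = 9.71e-13). NQO1, a quinone reductase, rose 4.86-fold, but its fetal and postnatal arrays touched, with 383 as the highest fetal and 370.4 as the lowest 1 dpn signal. PRDX3, the mitochondrial peroxiredoxin, rose 2.65-fold, with 0.54 log2 units at 1 dpn. Its persistence was lost with quantile normalization, without 188 dpn animals 1, 2 and 3 and in 8 of the 24 fits that left out a single animal. GPX7, a glutathione peroxidase of the endoplasmic reticulum, fell 3.11-fold, mostly after 28 dpn, and was not persistent with median centring.

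The fetal and embryonic list had 7 of 11 genes lower and 2 higher, with 4 persistent falls, 1 persistent rise and a median of −1.31, and 3 of these falls persisted under all 3 scalings. MYL4, the light chain of embryonic muscle and the atrium, was 4164 to 8526 (median 6356) at 94 dpc, 86.4 to 416 (median 245) at 1 dpn, 297 to 433 (median 369) at 28 dpn and 208 to 327 (median 231) at 188 dpn. The fetal arrays stood apart from every postnatal one, and the fall of 22.6-fold was level (log2 difference −4.50, SE 0.23, adjusted p = 5.77e-12).

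TNNT2, the cardiac troponin T that fetal skeletal muscle also makes, was 2044 to 3776 (median 3368) at 94 dpc and 21.3 to 88.7 (median 56.9) at 1 dpn. It was higher again at 28 dpn, with 196 to 373 (median 227), and 24.6 to 234 (median 68.5) at 188 dpn. All postnatal arrays stayed under the fetal range, but those of 28 dpn stood above those of 1 dpn (by at least 1.62 log2 units, adjusted p = 0.000831). The means of 1 and 188 dpn were under background, and the average fall was at least 24.5-fold (adjusted p = 5.64e-10). CNN3, a calponin of non-muscle cells, fell 4.26-fold, and TPM4, a non-muscle tropomyosin, 2.92-fold. TPM4 was not persistent with median centring or without 1 dpn animals 1, 2 and 3. TNNC1, the troponin C of slow and cardiac muscle, was the persistent rise of the list (0.97, SE 0.17), and was not persistent with quantile normalization. The fibroblast and smooth muscle markers of the list of cell types moved in the same direction as these falls, with 6 of 7 and 3 of 6 lower.

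Of 27 measured genes of the adult fibre and sarcomere 21 were higher and 1 lower, with 13 persistent rises and a median of 0.77. Under all 3 scalings 5 of the 13 persisted. MYL3, the slow ventricular light chain, was 3788 to 5936 (median 4982) at 94 dpc, 11475 to 33000 (median 24876) at 1 dpn, 22125 to 33807 (median 25250) at 28 dpn and 11238 to 26630 (median 20082) at 188 dpn. The ranges did not overlap, and the rise was 4.50-fold (log2 difference 2.17, SE 0.19, adjusted p = 1.08e-08). TMOD4, which caps thin filaments of skeletal muscle, rose 5.67-fold with a growing course. NEB, the nebulin that runs along thin filaments, rose 2.83-fold, and MYOT, a protein of the Z disc, 2.97-fold. Neither of these last genes was persistent with quantile normalization.

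MYL1, the fast light chain, shows how the brightest genes depend on scaling: it was 34377 to 49627 at 94 dpc and 57352 to 86177 after birth, a difference of 0.68 (SE 0.10, adjusted p = 1.13e-05) that became 0.01 with quantile normalization (adjusted p = 0.95). TPM3, the slow tropomyosin, was the member of the list that was lower (−1.05, SE 0.17, adjusted p = 3.58e-05), and it was not persistent.

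Of 12 calcium handling genes 7 were higher and 2 lower, with 4 persistent rises, 2 persistent falls and a median of 0.97, and 2 of each persisted under all 3 scalings. ATP2A1, the calcium pump of fast fibres, was 557 to 1810 (median 1410) at 94 dpc, 11506 to 22484 (median 15299) at 1 dpn, 14336 to 18659 (median 17309) at 28 dpn and 17360 to 24046 (median 21561) at 188 dpn. The postnatal arrays lay far above the fetal ones, and the rise was 13.9-fold and level (log2 difference 3.80, SE 0.18, adjusted p = 1.62e-12).

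CASQ2, the calsequestrin of slow and cardiac muscle, fell at least 7.84-fold (adjusted p = 2.54e-06) with a growing course. CASQ2 signals were 1639 to 2729 (median 2493) at 94 dpc, 158 to 2043 (median 366) at 1 dpn, 308 to 740 (median 557) at 28 dpn and 14.5 to 122 (median 42.4) at 188 dpn. At 1 dpn 1 array overlapped the fetal range, and without 1 dpn animals 1, 2 and 3 the step did not persist, though the average contrast still passed (adjusted p = 5.23e-06). RYR3, the calcium release channel found mainly in immature muscle, fell 4.25-fold without overlap of arrays (log2 difference −2.09, SE 0.23, adjusted p = 2.5e-07). Of its 4 probe sets 2 passed in this direction and none in the other. SLN, a small inhibitor of the calcium pump, was 0.73 higher (SE 0.12), and with quantile normalization 0.19 (adjusted p = 0.1).

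Of 31 chaperone genes 16 were higher and 4 lower, with 9 persistent rises, 5 of them under all 3 scalings, and a median of 0.44. HSPB7, a small heat shock protein of heart and muscle, peaked at 1 dpn. Its signals were 396 to 756 (median 578) at 94 dpc, 5609 to 10983 (median 7518) at 1 dpn, 1259 to 1730 (median 1496) at 28 dpn and 1567 to 3386 (median 3122) at 188 dpn. The fetal arrays lay under all others, and the rise was 5.56-fold (log2 difference 2.47, SE 0.17, adjusted p = 3.82e-10). HSPB3 and HSPB8, small heat shock proteins of muscle, rose 3.90-fold and 3.48-fold and had their highest medians at 188 dpn. CRYAB, the alpha-B crystallin that protects desmin, rose 3.43-fold, and was not persistent with quantile normalization.

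Of 22 genes of the glucocorticoid receptor and its targets 11 were higher and 4 lower, with 7 persistent rises, each of which held under all 3 scalings, 1 persistent fall and a median of 0.52. PDK4 and ANGPTL4 are also members of this list. FKBP5, a chaperone of the glucocorticoid receptor that glucocorticoids induce, was 72.9 to 329 (median 96.3) at 94 dpc, 263 to 1451 (median 859) at 1 dpn, 274 to 617 (median 492) at 28 dpn and 610.3 to 2548 (median 1231) at 188 dpn. The fetal range reached into the postnatal one through a single array, 94 dpc animal 5, and the rise was 6.57-fold (log2 difference 2.71, SE 0.36, adjusted p = 2.9e-06). MT3, a metallothionein, was the persistent fall (at least 5.42-fold, adjusted p = 0.000525), and it was not persistent with either other scaling.

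Thyroid hormone handling held 1 persistent fall among 7 genes, NCOA1, a coactivator of nuclear receptors. NCOA1 was 1390 to 2049 at 94 dpc, 588 to 1001 at 1 dpn, 694 to 953 at 28 dpn and 601 to 854 at 188 dpn, without overlap, and fell 2.37-fold (log2 difference −1.24, SE 0.12, adjusted p = 4.08e-08). All 6 probe sets of NCOA1 passed in this direction. The list's median of 0.12 changed sign under 3 alternatives. Protein breakdown and autophagy had 11 of 27 genes higher and 5 lower, with 4 persistent rises and 3 persistent falls. Its largest rise was TP53INP2, which binds the autophagosome, with signals of 76.1 to 261 at 94 dpc and 1522 to 5368 after birth and a 12.3-fold rise (log2 difference 3.62, SE 0.23, adjusted p = 8.7e-11). BNIP3L, a receptor for mitophagy, fell 2.96-fold (log2 difference −1.56, SE 0.21).

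**Figure D4:**
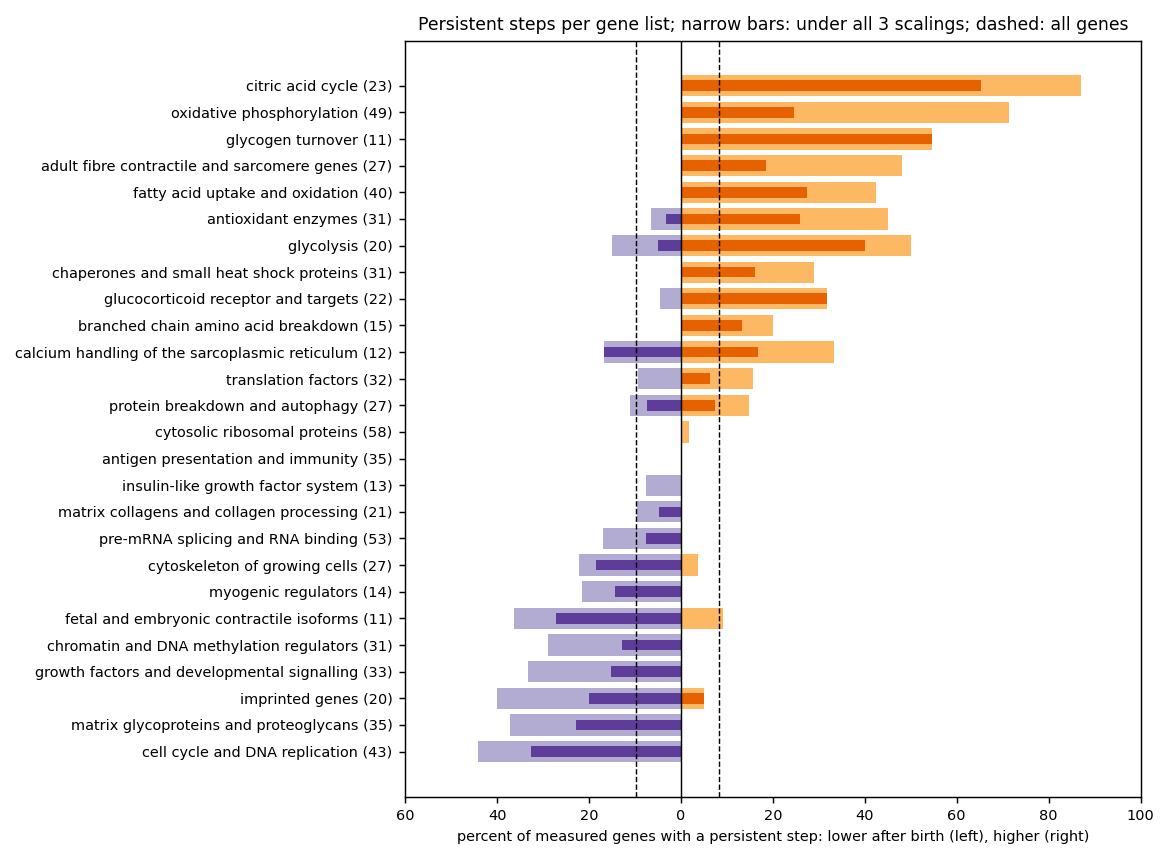
Wide bars give the percent of measured genes of each list (number in brackets) with a persistent step, lower after birth to the left and higher to the right. Narrow bars give those that hold under all 3 scalings. Dashed lines give the shares over all 6765 genes with the scaling as deposited (8.31% higher, 9.71% lower) and belong to the wide bars. Under all 3 scalings 435 of the 6765 genes were persistently higher and 278 lower. Citric acid cycle genes reach furthest to the right, with 20 of 23, and cell cycle genes furthest to the left, with 19 of 43.

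Genes of growth and cell division made up the other side. Of 43 measured cell cycle and DNA replication genes 35 were lower and 1 higher, with 19 persistent falls, 14 of them under all 3 scalings, and a median of −1.54. At 28 dpn 17 of the 43 were above 1 dpn and 1 below, beside 13.3% and 13.4% of all genes, and from 28 to 188 dpn 23 fell and 1 rose, beside 14.3% and 6.16%. The list was lowest at 1 and 188 dpn, with median differences from 94 dpc of −1.94, −0.93 and −2.08 at the 3 stages.

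LMNB1, the lamin of the nuclear envelope of dividing cells, follows this course. It was 846 to 1724 (median 1272) at 94 dpc, 57.5 to 170 (median 148) at 1 dpn, 318 to 697 (median 497) at 28 dpn and 132 to 281 (median 151) at 188 dpn. The fetal arrays stood above all postnatal ones, and the 28 dpn arrays above those of 1 and 188 dpn. The fall was 5.71-fold (log2 difference −2.51, SE 0.22, adjusted p = 9.01e-09). HMGB2, a chromatin protein of proliferating cells, fell 6.43-fold without overlap, and further between 28 and 188 dpn by −1.50 (adjusted p = 0.000892).

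CDC20, which activates the anaphase promoting complex, was 298 to 537 at 94 dpc and 7.19 to 54.2 at 188 dpn, under background. At 1 dpn it was 38.6 to 376, into the fetal range, and its average fall was at least 4.08-fold (adjusted p = 9.82e-06). AURKB, the kinase of chromosome segregation, was 311 to 526 at 94 dpc and 16.9 to 169 after birth, a fall of at least 4.20-fold (adjusted p = 6.08e-05). MYBL2, a transcription factor of dividing cells, was 496 to 674 at 94 dpc, 90.4 to 286 at 1 dpn, 85.8 to 221 at 28 dpn and 4.89 to 36.3 at 188 dpn. Its ranges were separate, and the average fall was at least 4.72-fold (adjusted p = 3.81e-08).

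Imprinted genes included the 2 largest persistent falls among genes whose 4 stage means were above background. Of 20 measured imprinted genes 10 were lower and 3 higher, with 8 persistent falls, 1 persistent rise and a median of −0.71. Under all 3 scalings 4 falls and the rise persisted. PEG10, a paternally expressed gene derived from a retrotransposon, was 15445 to 18831 (median 17313) at 94 dpc. Afterwards it was 128 to 4808 (median 2845) at 1 dpn, 364 to 812 (median 444) at 28 dpn and 82.8 to 230 (median 146) at 188 dpn. The fetal arrays were close together and far above the rest, and the fall went on through both later intervals. It was 35.8-fold on average (log2 difference −5.16, SE 0.47, adjusted p = 1.53e-08). The other 2 probe sets of PEG10 differed, with −1.21 and 0.71.

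MEG3, a maternally expressed long non-coding RNA, was 9761 to 11719 (median 10560) at 94 dpc, 161 to 2027 (median 844) at 1 dpn, 354 to 882 (median 805) at 28 dpn and 165 to 307 (median 205) at 188 dpn. No postnatal array reached the fetal range, though the 1 dpn arrays were scattered. The fall was 24.2-fold (log2 difference −4.60, SE 0.42, adjusted p = 1.95e-08). PLAGL1, a zinc finger factor that regulates other imprinted genes, was 2211 to 4227 (median 3596) at 94 dpc, 529 to 1807 (median 1201) at 1 dpn, 268 to 382 (median 304) at 28 dpn and 95.3 to 211 (median 162) at 188 dpn. Each stage lay under the one before it without overlap of arrays. The fall was 8.94-fold (log2 difference −3.16, SE 0.22, adjusted p = 2.65e-10), and all 3 probe sets passed in this direction.

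PEG3, another paternally expressed zinc finger gene, fell 5.18-fold with a level course. IGF2, the fetal insulin-like growth factor, was 6860 to 16939 (median 10840) at 94 dpc, 3013 to 8387 (median 4490) at 1 dpn, 1404 to 6741 (median 4299) at 28 dpn and 350.4 to 1439 (median 904) at 188 dpn. The ranges of 94 dpc and 1 dpn overlapped, while those of 28 and 188 dpn lay under all fetal arrays. IGF2 fell 4.57-fold (log2 difference −2.19, SE 0.31, adjusted p = 5.51e-06), and 7 of its 13 probe sets passed in this direction and none in the other. It was not persistent with median centring, with the mean of its probe sets or without 1 dpn animals 1, 2 and 3. GRB10, an imprinted inhibitor of insulin and IGF signalling, was the persistent rise. It was 625 to 1383 (median 1141) at 94 dpc, 1452 to 6645 at 1 dpn, 2179 to 3635 at 28 dpn and 5073 to 10102 at 188 dpn, above the fetal range in every array, and rose 3.81-fold (log2 difference 1.93, SE 0.24, adjusted p = 1.24e-06).

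In the insulin-like growth factor system as a whole 3 of 13 genes were lower and none higher, and the persistent fall was IGFBP2, a binding protein of these factors (at least 4.96-fold, adjusted p = 0.00078). That step did not persist with either other scaling. Of 33 growth factor and developmental signalling genes 20 were lower and none higher, with 11 persistent falls, 5 of them under all 3 scalings, and a median of −0.84. MDK, midkine, a growth factor of the fetus, was 2023 to 6533 (median 3045) at 94 dpc, 62.3 to 725 (median 228) at 1 dpn, 464 to 788 (median 627) at 28 dpn and 103 to 373 (median 232) at 188 dpn. All postnatal arrays lay under the fetal ones, and the fall was 10.4-fold (log2 difference −3.38, SE 0.33, adjusted p = 5.09e-08).

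PTN, pleiotrophin, the relative of midkine, was 943 to 2000 at 94 dpc, 142 to 647 at 1 dpn, 58.3 to 189.9 at 28 dpn and no more than 51.2 at 188 dpn, under background, and fell at least 10.0-fold (adjusted p = 4.83e-09). Of the 2 probe sets of PTN 1 passed. SPP1, osteopontin, was 4110 to 20499 (median 6825) at 94 dpc, 216 to 612 (median 389) at 1 dpn, 192 to 330 (median 227) at 28 dpn and 113 to 3290 (median 191) at 188 dpn. The highest fetal signal was that of 94 dpc animal 5, where macrophage markers were also high. The fall was 23.3-fold (log2 difference −4.54, SE 0.51, adjusted p = 3.36e-07). FGF18, a fibroblast growth factor, fell at least 4.36-fold (adjusted p = 2.02e-05) and lost its persistence without 1 dpn animals 1, 2 and 3. TGFB3, a transforming growth factor, fell 4.06-fold (adjusted p = 4.85e-05), and was not persistent with either other scaling.

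Of 40 listed regulators of muscle formation 14 could be read by a probe set with 1 symbol. Of 14 measured myogenic regulators 5 were lower and 1 higher, with 3 persistent falls, 2 of them under all 3 scalings, and a median of 0.16. MYF5, the early myogenic factor of myoblasts, was 306 to 1183 (median 677) at 94 dpc, 102 to 627 (median 139) at 1 dpn, 77.4 to 153 (median 102) at 28 dpn and 54.6 to 127 (median 67.0) at 188 dpn. The ranges of 94 dpc and 1 dpn overlapped, and the fall was at least 5.12-fold (adjusted p = 5.51e-06). MSC, a repressor of myogenic factors, fell 2.85-fold without overlap (log2 difference −1.51, SE 0.18). NCAM1, the adhesion molecule of myoblasts and uninnervated fibres, fell 3.33-fold, with 409 to 626 at 94 dpc and 62.8 to 285 after birth, and all 4 of its probe sets passed. CHRNA1, the acetylcholine receptor subunit of the motor endplate, was lower on average (−1.87, SE 0.34, adjusted p = 0.00014) and just missed the rule for a persistent step.

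Of 35 matrix glycoprotein and proteoglycan genes 30 were lower and none higher, with 13 persistent falls, 8 of them under all 3 scalings, and a median of −1.23. From 1 to 188 dpn 26 of the 35 fell and 1 rose, beside 27.5% and 17.4% of all genes. Of 21 collagen and collagen processing genes 16 were lower and none higher, but 2 were persistent and 1 under all 3 scalings, with a median of −1.03. In that list 14 of 21 fell from 28 to 188 dpn and none rose, beside 14.3% and 6.16% of all genes. The list's median difference from 94 dpc was −0.41, −0.95 and −1.82 at the 3 stages. The fibroblast markers, which are themselves matrix genes for the most part, moved in the same direction, with 6 of 7 lower.

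POSTN, periostin, a matrix protein of growing connective tissue, was 8556 to 15237 (median 13096) at 94 dpc, 368 to 4137 (median 854) at 1 dpn, 418 to 2398 (median 1617) at 28 dpn and 75.1 to 504 (median 168) at 188 dpn. The fetal arrays lay above all others, and the fall was 21.3-fold (log2 difference −4.41, SE 0.41, adjusted p = 1.77e-08). VCAN, versican, a large proteoglycan of provisional matrix, fell 13.2-fold (log2 difference −3.73, SE 0.25, adjusted p = 2.26e-10), and 3 of its 5 probe sets passed. MMP14, a membrane protease that degrades collagen, was 1185 to 1567 at 94 dpc, 153 to 579 at 1 dpn, 133 to 308 at 28 dpn and 42.4 to 117 at 188 dpn. MMP14 fell 8.30-fold (log2 difference −3.05, SE 0.26, adjusted p = 6.2e-09), without overlap of the fetal and postnatal arrays. ASPN, asporin, a small leucine-rich proteoglycan, fell 7.90-fold, with −2.10 at 1 dpn and a further fall after 28 dpn (−2.65 from 28 to 188 dpn, adjusted p = 1.78e-05).

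COL1A2, a chain of type I collagen, was 3320 to 5764 (median 4611) at 94 dpc, 551 to 4379 (median 1156) at 1 dpn, 1161 to 2890 (median 1683) at 28 dpn and 327 to 623 (median 506) at 188 dpn. At 1 dpn 1 array overlapped the fetal range, and the fall was 4.22-fold (log2 difference −2.08, SE 0.28, adjusted p = 4.3e-06). COL5A1, a chain of type V collagen, fell 3.29-fold with a growing course, and was not persistent with median centring.

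The cytoskeleton of growing cells had 15 of 27 genes lower and 1 higher, with 6 persistent falls, 5 of them under all 3 scalings, and a median of −0.62. FSCN1, fascin, which bundles actin in cell protrusions, was 3168 to 3643 at 94 dpc, 959 to 2397 at 1 dpn, 745 to 1390 at 28 dpn and 291 to 470 at 188 dpn, without overlap, and fell 4.23-fold (log2 difference −2.08, SE 0.18, adjusted p = 5.77e-09). MARCKS, a membrane protein that binds actin, fell 3.95-fold (log2 difference −1.98, SE 0.18).

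Of 31 chromatin genes 18 were lower and 1 higher, with 9 persistent falls, 4 of them under all 3 scalings, and a median of −0.50. EZH2, the methyltransferase of the Polycomb complex, was 225 to 588 at 94 dpc and 6.35 to 115 after birth, a fall of at least 4.18-fold (adjusted p = 0.00013). HMGN1 and HMGN2, nucleosome binding proteins, fell 2.76-fold and 2.06-fold, and HMGN2 was not persistent with median centring. Of 53 splicing and RNA binding genes 32 were lower and none higher, with 9 persistent falls, 4 of them under all 3 scalings, and a median of −0.48.

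Among these, HNRNPH3 and CELF2, which bind pre-mRNA, fell 2.81-fold and 2.29-fold. Both were lowest at 1 dpn and moved back toward the fetal level by 188 dpn, by 0.84 and 0.64 (adjusted p = 0.00849 and 0.00664), and neither persisted with median centring. SRSF5, a splicing factor, fell 2.62-fold without overlap of arrays (log2 difference −1.39, SE 0.20, adjusted p = 1.08e-05).

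Of 58 cytosolic ribosomal protein genes 18 were higher and 2 lower, but 1 was persistent and none under all 3 scalings. Their median of 0.18 became −0.33 with quantile normalization, so no direction is given. In the comparison of 188 with 1 dpn, which involves no fetal mean, 32 of the 58 fell and 1 rose, beside 27.5% and 17.4% of all genes. These counts use the scaling as deposited, and whether they hold under the other scalings was not tested. RPL3, a protein of the large subunit, was 17180 to 26100 at 94 dpc, 23568 to 28618 at 1 dpn, 8463 to 10013 at 28 dpn and no more than 6030 at 188 dpn, and its average fall of 2.01-fold (adjusted p = 2.78e-07) averages a range at 1 dpn that overlapped the fetal one with far lower ranges later. With the 18 postnatal samples as 1 group, whose spread then includes these differences, RPL3 did not pass (adjusted p = 0.084).

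Of 32 translation factors 11 were higher and 7 lower, with 5 persistent rises and 3 persistent falls. EIF1, which selects the start codon, rose 2.45-fold with a level course (log2 difference 1.29, SE 0.12, adjusted p = 1.3e-08). EIF5A, an elongation factor, rose 2.23-fold, on 1 of its 2 probe sets. PABPC1, the poly(A) binding protein of the cytoplasm, fell 2.21-fold with a growing course, and was not persistent with median centring.

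The list of antigen presentation and immunity held no persistent step. LTB, which is outside this list, had a persistent fall and is described below. Of the 35 measured genes of the list 1 was higher and none lower, with a median of 0.07. Of 8 circadian clock genes 1 was higher and 1 lower, and the sign of their median depended on scaling.

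Some of the largest steps belong to no list. PPP1R1A, an inhibitor of protein phosphatase 1, was 1998 to 4718 at 94 dpc, 13408 to 35327 at 1 dpn, 39336 to 71585 at 28 dpn and 42815 to 66256 at 188 dpn, without overlap, and rose 10.1-fold (log2 difference 3.34, SE 0.19, adjusted p = 2.65e-11). ADSSL1, the muscle enzyme of the purine nucleotide cycle, rose 9.70-fold in 2 steps, 1.72 at 1 dpn and a further 2.24 by 28 dpn (adjusted p = 1.39e-06). BPGM, which makes and breaks down bisphosphoglycerate, was 137 to 243 at 94 dpc, 217 to 725 at 1 dpn, 2222 to 3843 at 28 dpn and 2943 to 6656 at 188 dpn. BPGM at 1 dpn still touched the fetal range, and its rise of 9.69-fold was gained mostly by 28 dpn (2.99 from 1 to 28 dpn, adjusted p = 1.32e-07).

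Some genes had a mean under background at 94 dpc and above it at each postnatal stage. CST6, cystatin E/M, a protease inhibitor, was 9.38 to 385 (median 19.0) at 94 dpc, 480.5 to 888 at 1 dpn, 408 to 1946 at 28 dpn and 1716 to 2627 at 188 dpn. The high fetal value came from 94 dpc animal 4, the fetal and postnatal ranges did not overlap, and the rise was at least 11.5-fold (adjusted p = 1.89e-08). TRNP1, a nuclear protein, was 3.52 to 52.6 at 94 dpc and 210.0 to 759 after birth, a rise of at least 6.11-fold (adjusted p = 1.92e-09). AKR1CL1, an aldo-keto reductase, rose at least 5.19-fold, on 1 of its 3 probe sets. PDE4C, a cyclic AMP phosphodiesterase, was 11.9 to 125 at 94 dpc, with 2 of the 6 arrays under background, and 96.6 to 363 at 1 dpn, 719 to 1080.5 at 28 dpn and 446 to 902 at 188 dpn. Its 1 dpn arrays overlapped the fetal ones, and it rose at least 5.15-fold (adjusted p = 1.41e-06). LTB, lymphotoxin beta, was 278 to 465 at 94 dpc and 8.44 to 174 after birth, with means under background at 1 and 188 dpn, a fall of at least 3.96-fold (adjusted p = 0.00063) that was not persistent with either other scaling.

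Among steps of at least 2 log2 units CKMT2, described above, and the following genes had the smallest range of the 3 postnatal stage means. This range does not measure the spread of arrays within a stage. TMEM52, a membrane protein, was 234 to 542 (median 404) at 94 dpc, 1211 to 1994 (median 1612) at 1 dpn, 1144 to 1943 (median 1739) at 28 dpn and 1173 to 2143 (median 1645) at 188 dpn. The 3 postnatal ranges were nearly the same and lay above the fetal one, and the rise was 4.35-fold (log2 difference 2.12, SE 0.18, adjusted p = 5.79e-09). HR, a corepressor of nuclear receptors, rose 5.34-fold and MCRIP2 4.55-fold, each on a single probe set among several. DDX50, an RNA helicase, fell at least 3.66-fold, and FAM129A, a stress protein, 4.04-fold, both without overlap of arrays. MBNL3, a splicing regulator of the muscleblind family, fell 6.17-fold, with 1 array at 188 dpn (672) inside the fetal range of 441 to 876. Its arrays at 188 dpn were scattered, from 34.0 to 672.

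Most changes of the average contrast were not persistent. Of 1926 such rises 745 passed at 28 and 188 dpn and not at 1 dpn, and of 4068 such falls 1395 did. CMYA5, a protein of the muscle costamere, was 760 to 2148 at 94 dpc, 1017 to 2106 at 1 dpn, 8719 to 13281 at 28 dpn and 15340 to 19728 at 188 dpn. GAMT, which makes creatine, followed with 360 to 727, 131 to 860, 3811 to 5606 and 7752 to 10213 in the same order, and MYH2, the myosin of fast oxidative fibres, with 3502 to 18420, 1851 to 18637, 61130 to 83734 and 58084 to 80848. In these genes the arrays of 1 dpn overlapped those of 94 dpc, and the difference arose between 1 and 28 dpn (2.81, 3.23 and 3.19 log2 units). C4BPA, a regulator of complement, was 15.3 to 2671 at 94 dpc, then 148 to 722 at 1 dpn and at least 2323 later, and the high fetal value came from 94 dpc animal 5.

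Among falls that were not persistent, UBE2C and PCLAF, which serve mitosis and DNA replication, missed the rule at 28 dpn, where their differences from 94 dpc were −1.24 and −1.33. C3H2orf40 was 1583 to 4641 at 94 dpc and 11.4 to 6395 at 1 dpn, a scatter that overlapped the fetal range. AHSG, the liver plasma protein fetuin A, was 679 to 22599 at 94 dpc and 13.2 to 17967 at 188 dpn, and its average difference of −3.53 (SE 1.18, adjusted p = 0.021) did not pass without 94 dpc animal 1 or animal 2 (adjusted p = 0.054 and 0.058).

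The rule has a threshold. Just inside it lay GINS3, WLS and MYCBP2, whose largest adjusted p of the 4 contrasts was 0.0497, 0.0498 and 0.0499, with average differences of −2.25, −1.42 and −0.59. Just outside lay CHRNA1, NDUFA5 and ZNHIT2, at 0.0503, 0.0503 and 0.0503, with −1.87, 0.85 and 0.81.

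**Figure D5:**
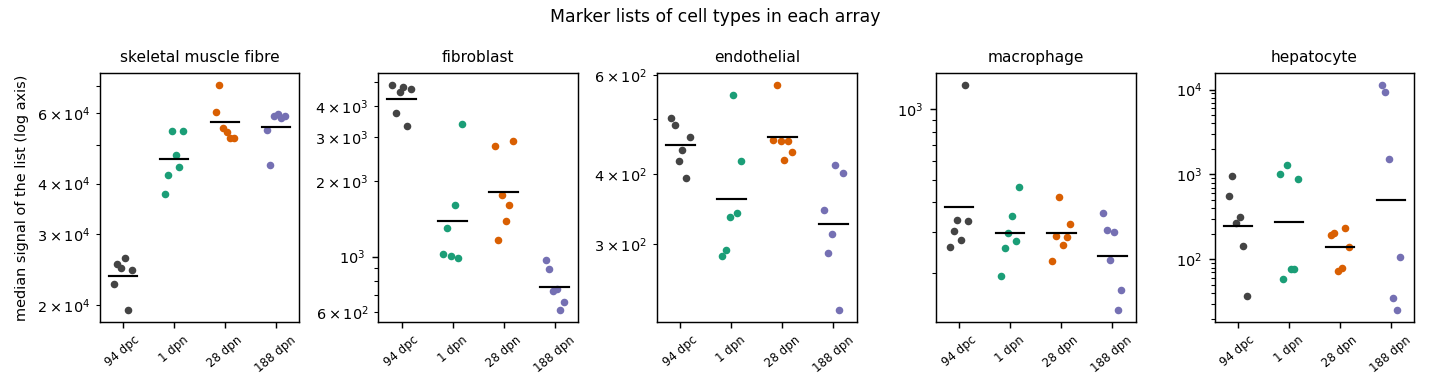
Panels give, for each of the 24 arrays, the median signal (log axis, a scale of its own in each panel) of the marker genes of 5 cell types by stage, with a line at the geometric mean of the stage. Muscle fibre medians are 19387 to 26180 at 94 dpc and at least 37723 after birth, fibroblast medians are 3320 to 4876 at 94 dpc and 610.3 to 966 at 188 dpn, and the macrophage median of 94 dpc animal 5 is 1274.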

How the data were processed

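Total RNA of 24 samples was measured, 1 Affymetrix array each, in 4 stages of 6 animals; cRNA was made from 0.5 µg of RNA, per the labels. The authors deposited linear signal intensity per probe set, made with GCOS 1.1.1 per the submitters' processing notes. Each array had been scaled: without 2% of probe sets at each end its mean was 498 to 499. The probe summary and scaling settings are not given in the sources used here.

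Of 24118 probe sets 183 controls (119 AFFX, 64 RPTR) were left out and 23935 tested as log2 without an added constant or filter. Platform annotation gave 10069 tested probe sets 1 symbol (6765 genes, 2261 with more than 1 probe set), 198 several and 13668 none; 9961 had a gene number in the reference table. Each gene is read by the probe set with the highest mean. Stage means were fitted with limma 3.58.1 (lmFit, eBayes; R 4.3.3, data.table version 1.17.8) on all 24 arrays with 20 residual degrees of freedom and no covariate, two-sided, and p-values were adjusted across the tested probe sets (Benjamini-Hochberg). Adjusted p-values in the text come from this fit unless an alternative is named. Figures were made in matplotlib 3.10.9 (numpy 2.4.6, pandas 2.3.3, Python 3.11.15). The fit was tested on simulated data.

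Background was the 95th percentile of 17 Tag control probe sets, a signal of 74.7. The mean was lower in 39.18% of those tested. In a stage whose mean lay under this level each array counts at the higher of its signal and the level, and the fold is then a lower bound; where both sides did, none is given. The number of arrays limits the precision. Animal numbers follow sample order and pair nothing.

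The members, the 30 gene lists and 10 marker lists, the rule for named genes and the alternatives were chosen with earlier results of these data known. Named genes were the 10 largest persistent rises and falls with every stage mean above background, and the 5 largest with 1 side under background. To these came the 4 of at least 2 log2 units with the smallest range of postnatal stage means. The 4 largest in each direction that were not persistent were also named. Each list added up to 4 persistent members, its brightest member and up to 2 members against the majority. Which of the list members are described was settled after their values were seen. Lists got no test of their own. Alternatives were quantile normalization, median centring, added constants, filters, probe set choice, thresholds, eBayes settings, array weights and left-out animals. No sequences or coordinates were used.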

Additional observations from a re-analysis of the deposited data

Results flagged for a closer look

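In 512 groups of 6 arrays (the genes named above and the marker medians at each stage) the array farthest from the others was compared with the range of its group. A single array stood apart in 48 of them by Dixon's criterion at the 95% level, while chance gives about 1 group in 20. The count was 21 at 94 dpc, 8 at 1 dpn, 8 at 28 dpn and 11 at 188 dpn.

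At 94 dpc the same animal, number 5, stood apart in 14 genes and in the macrophage markers, whose median was 1274 against 335 in the next array. It was low in ATP2A1 (556.7), ADSSL1 (727.2), MCRIP2 (568.4), TMOD4 (1762), SLN (21640), CKM (26080), GPD1 (883.3), COX7A1 (3720), UQCRB (5269), FABP3 (4244) and GRB10 (624.6), and high in SPP1 (20500), TPM3 (5172) and FKBP5 (328.7). With this animal left out 876 rises and 1795 falls were persistent. The other fetal arrays apart from their group were animal 4, high in CST6 (385.4) and low in POSTN (8556) and ASPN (2802), animal 6, low in TP53INP2 (76.1), animal 1, low in UCP3 (15.32), and animal 2, low in HR (30.39).

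At 1 dpn animal 6 was low in PEG10 (128.3) and MT3 (23.64) and high in CNN3 (5441), animal 4 was low in LMNB1 (57.51) and NCAM1 (62.77), animal 3 was high in AKR1CL1 (773.1) and low in EZH2 (15.5), and animal 1 was high in HMGB2 (1832). At 28 dpn animal 2 was high in PPP1R1A (71580) and in the endothelial marker median (576.7) and low in POSTN (417.9), LTB (33.26) and PEG3 (34.83). Animal 5 of that stage was low in TMEM52 (1144), animal 3 high in COX6A1 (4913) and animal 1 low in LPIN1 (791.8).

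At 188 dpn animal 2 was low in TNNC1 (32150), MYL1 (57350), CKM (51110), PYGM (39560) and the skeletal muscle fibre marker median (44390). Animal 5 was low in IGFBP2 (21.33), HSPB7 (1567) and the smooth muscle and pericyte marker median (846.7), animal 6 was low in CMYA5 (15340) and high in the nerve and Schwann cell marker median (196.6), and animal 4 was high in MYBL2 (36.26).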

How the results depend on the processing

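Quantile normalization gave 4097 falls on average and 1363 persistent falls. Median centring gave 5262 rises and 3340 falls, with 1969 and 929 persistent, and 905 persistent falls held under all 3 scalings, an alternative chosen after seeing the data. An adjusted p of at most 0.01 left 636 persistent rises and 1237 falls, 780 of them changed again after birth. At least 2-fold left 1338 rises and 3501 falls, with 392 and 1013 persistent, 674 changed again and 351 level. With 1 probe set per gene, where fewer are tested, these were 1430, 1994, 633, 741, 798 and 229. The ranges over fits that each left out 1 animal were 2577 to 2990 rises, 5458 to 6286 falls, 876 to 1046 persistent rises, 1795 to 2191 persistent falls, 1311 to 1624 changed again and 496 to 643 level. All 118 named genes kept their direction in 4484 fits of a gene under an alternative, and 8 of these, in 6 genes, did not pass. Each of the 118 had passed in the main fit to the same arrays, and most of the fits only leave out 1 animal. The fit without 94 dpc animal 5 is counted both as a named alternative and among the single left-out animals. The number of fits is therefore not a number of independent checks, and the kept direction adds little.

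Of 104 persistent named genes 76 stayed persistent under every alternative in which persistence was judged gene by gene. The adjusted p of at most 0.01, the 2-fold threshold and the fit with 1 probe set per gene were applied to the counts only. Whether the 76 genes hold under these was not tested. The fit with the postnatal samples as 1 group has no stage contrasts and cannot judge persistence. Leaving out 1 animal ended the persistence of PRDX3 in 8 fits (94 dpc animals 1, 2, 3, 5 and 6, 1 dpn animals 4, 5 and 6), COL5A1 in 4 (94 dpc 3 and 4, 1 dpn 4 and 5), MT3 in 4 (94 dpc 3 and 4, 28 dpn 1 and 5), PHKB in 2 (94 dpc 2, 1 dpn 5), TGFB3 in 2 (1 dpn 1 and 5), FABP3 in 2 (188 dpn 4 and 6), and SLN (94 dpc 5), LTB (28 dpn 2) and IGFBP2 (188 dpn 5) in 1 each. List medians that changed sign were ribosomal proteins (−0.33, quantile), circadian clock (0.030 quantile, 0.10 centred), erythroid (0.0088 and 0.0021), lymphocyte (0.11 and 0.30, and 0.55 without 94 dpc animal 5), thyroid (−0.11 without the dimmest 30%, −0.044 without 1 dpn animals 1, 2 and 3, −0.43 without 188 dpn animals 1, 2 and 3), nerve (−0.34 without the dimmest 30%, −0.21 with the mean of probe sets, −0.030 without 1 dpn animals 1, 2 and 3) and immunity (−0.039 without 188 dpn animals 1, 2 and 3). The causes were not tested. Signals near background limit folds to bounds. No paired analysis was possible because the labels give the groups no shared replicate numbers.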
